A study of Homo sapiens with 7 samples.

Results

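Semaphorins, neuropilins, plexins, ephrins and Eph receptors were followed in A549 cells made senescent in either of 2 ways. Members were all genes of the deposited table whose symbols place them in these families, 40 of 14535 genes: 15 semaphorins, 2 neuropilins, 7 plexins, 7 ephrins and 9 Eph receptors. A549 cells are an established epithelial line from a lung adenocarcinoma. In 3 libraries (doxorubicin 1 to 3) the cells had received doxorubicin, a topoisomerase II poison, at 100 nM for 24 h. In 4 libraries (stretch 4 to 7) a cyclic stretch of 15% elongation was applied over 24 h, 15 cycles to the minute. Both groups were stained for β-galactosidase, a marker of senescent cells, after 6 days, and RNA was taken from the positive cells. No untreated cells were analysed here, so every difference is between the 2 treatments and "higher in doxorubicin" is the same as "lower in stretch". Whether the replicates were grown as separate cultures is not stated, so the spread behind each p-value may be partly or wholly technical.

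Total counts were 2611739 to 4644250 in doxorubicin and 5636386 to 7419778 in stretch. Libraries were put on a common scale with edgeR's trimmed-mean (TMM) factors, and levels are given in CPM, a count relative to that scaled library size. A level of 3 counts, taken as the limit of detection, was 0.567 to 2.59 CPM in doxorubicin, where library 2 was the shallowest, and 0.321 to 0.401 CPM in stretch. Doxorubicin libraries 1 and 2 stood furthest from stretch. EIF4A2, a translation factor gene, took 16.1%, 30.6% and 10.8% of the counts of doxorubicin 1, 2 and 3 against at most 2.87% in stretch. Doxorubicin 3 thus shared this excess. The genes at a count of 0 were 10.8%, 21.2% and 5.02% in doxorubicin 1, 2 and 3 and 4.09% to 4.79% in stretch. Results are therefore also given with doxorubicin 3 as the only doxorubicin library. That fit assumes that the lone library varies like the stretch libraries, so its p-values leave out the wider spread seen among the doxorubicin libraries. Epithelial markers were present, with KRT8 at 340 to 789 CPM and KRT18 at 401 to 2763 CPM in every library, but EPCAM stood at 0.865 to 4.54 CPM in doxorubicin, below its 10.2 to 14.6 CPM in stretch. The 5 epithelial markers summed to 1932 to 3475 CPM in doxorubicin and 949.6 to 1270.4 CPM in stretch, and KRT18, the most abundant in doxorubicin, was itself called (edgeR adjusted p = 0.0199). Sums of genes typical of A549, 5 of 5 in the table, ran the other way, at 2981 to 4080 CPM in doxorubicin and 4218 to 5575 CPM in stretch. Means were higher in stretch for ALDH1A1 (1576 against 564 CPM), AKR1C1 and NQO1. They were not for AKR1B10 (1732 against 1900 CPM) or for AKR1C2, which was at 0 to 1.59 CPM. Markers of blood cells moved with the groups: the 3 of 5 in the table (CD14, CD68 and LYZ) summed to 100.2 to 139 CPM in doxorubicin and 57.5 to 61.0 CPM in stretch, mostly through CD68, a lysosomal protein that other cells also make, which was itself called. The 4 of 6 fibroblast markers in the table summed to 9.26 to 18.2 against 7.35 to 10.4 CPM, and the 1 of 4 endothelial markers, CDH5, to 0 against at most 0.963 CPM. The part of any such marker difference in the results below was not tested.

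These proteins tell cells and their processes where to go and where to stop. Semaphorins are secreted or membrane-bound ligands, and they act on plexins, large receptors whose intracellular part is a GTPase-activating domain for Rap and R-Ras. Secreted class 3 semaphorins mostly need a neuropilin, which binds the ligand while the plexin signals, whereas membrane-bound classes bind plexins directly. Ephrins and Eph receptors are both held on membranes, so they signal at cell contacts and in both directions. EphA receptors mainly bind lipid-anchored ephrin-A ligands, EphB receptors mainly bind transmembrane ephrin-B ligands, and a few cross over. In epithelia both systems act on the actin cytoskeleton, and so set cell shape, adhesion and the borders between groups of cells.

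The sequences just upstream of EPHB2 and PLXNB2 are shown because these were the members past the significance threshold. RefSeq on GRCh38.p14 places them at chr1:22710588-22710837 (plus strand) and chr22:50301670-50301919 (minus strand), each 250 bases ending at the base before a transcript start. EPHB2 has 2 listed starts, of which the first was used, and the PLXNB2 window lies inside the span GENCODE gives that gene. The capitals mark the GC box GGGCGG, the core of the site bound by Sp1-type factors, a motif chosen after the sequences were seen.
EPHB2: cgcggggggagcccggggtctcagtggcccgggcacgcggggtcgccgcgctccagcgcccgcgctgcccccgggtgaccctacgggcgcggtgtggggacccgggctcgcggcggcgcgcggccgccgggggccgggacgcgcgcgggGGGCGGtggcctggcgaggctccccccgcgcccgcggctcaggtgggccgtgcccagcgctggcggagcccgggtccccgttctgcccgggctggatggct
PLXNB2: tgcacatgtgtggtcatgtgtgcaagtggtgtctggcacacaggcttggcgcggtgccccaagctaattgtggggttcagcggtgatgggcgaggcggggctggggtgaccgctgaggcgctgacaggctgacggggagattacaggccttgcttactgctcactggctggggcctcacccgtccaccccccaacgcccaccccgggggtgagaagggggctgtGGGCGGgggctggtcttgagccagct
Each window held the GC box once on the printed strand, from base 150 to 155 in EPHB2 and from base 225 to 230 in PLXNB2, counted from the first printed base. The GC box, searched on both strands, was in 42.6% of 35116 promoter windows of this length and in 30 of the 35 members with an entry in that RefSeq table. GC content was 84.8% in the EPHB2 window and 66.4% in that of PLXNB2, against a median of 58% over all windows. Neither window held the AP-1 motif TGANTCA, the TEAD motif GGAATG, the interferon-response element or the NF-kB motif on either strand. These were in 6.57%, 11.9%, 3.02% and 22.6% of all windows.

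EPHB2 and PLXNB2 were higher in doxorubicin than in stretch, 5.89-fold and 5.90-fold by edgeR's fit, which called no member higher in stretch. Of the 40 members, 31 had enough counts to be tested, and 2 of these (6.45%) had an adjusted p under 0.05 (quasi-likelihood test of edgeR), both higher in doxorubicin. Over all 11230 tested genes 2.32% passed, 1.97% higher in doxorubicin and 0.356% higher in stretch. The median log2 fold change (stretch minus doxorubicin) was -0.56 over the 31 members and 0.02 over all tested genes, and 21 members (67.7%) lay on the doxorubicin side against 48.8% of all genes; with library totals 12 did (38.7% against 16.2%). An unadjusted p under 0.05 was reached by 10 members (32.3%, against 23.2% of all tested genes), 9 on the doxorubicin side (29%, against 14.5% of all tested genes) and 1 on the stretch side (3.23% against 8.66%). Group ranges did not overlap for 7 members higher in doxorubicin (22.6%, against 9.88% of all genes) and for 1 higher in stretch (3.23% against 11.5%). Doxorubicin 2 was the highest library for 19 of the 31 (61.3%), and for 28.4% of all tested genes. The family's median was -0.21 without doxorubicin 2 and -0.06 with doxorubicin 3 alone. With library totals in place of TMM factors it was 0.28, where the median of all genes was 0.71, so the members' median lay below that of all genes by 0.43 instead of 0.58. In such bulk libraries, fewer cells that express a gene and less of its RNA per cell cannot be told apart.

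**Figure D1:**
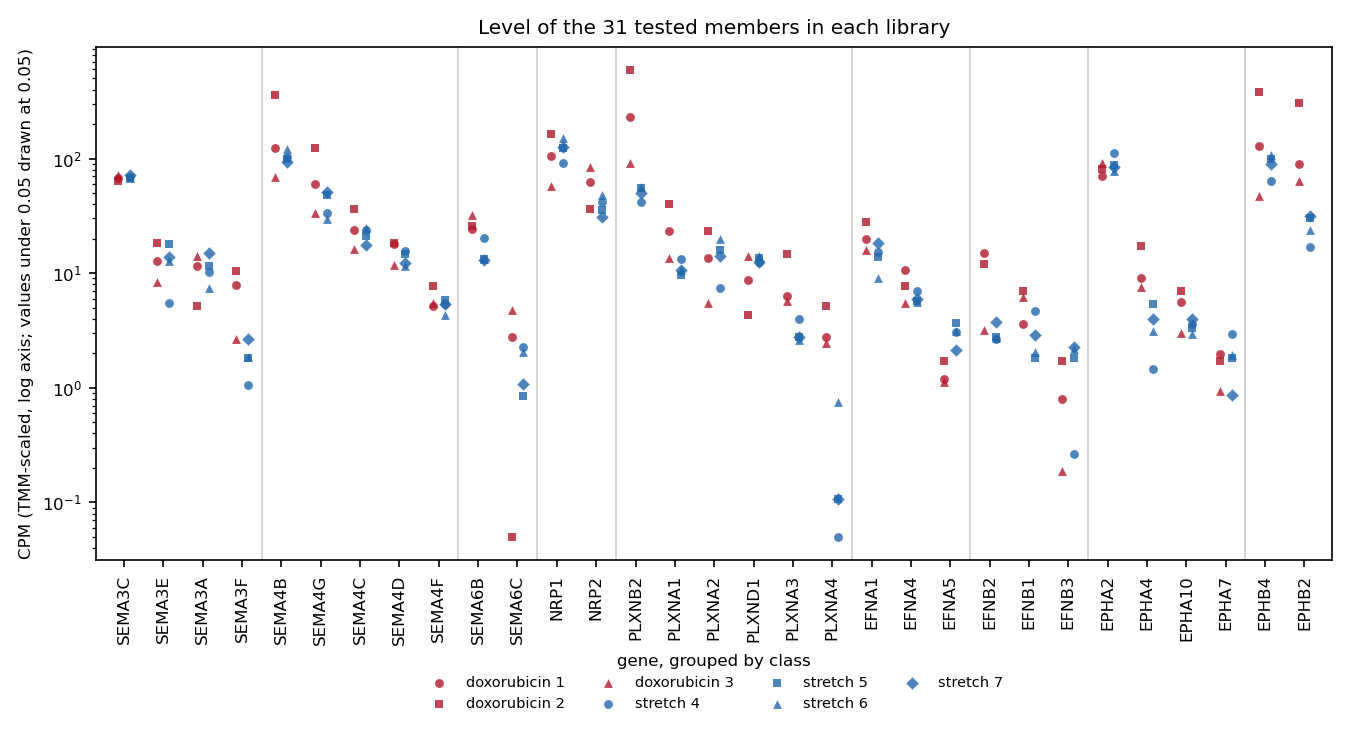
Level of each of the 31 tested members in every library, in TMM-scaled CPM on a log axis, with genes grouped by class and ordered by mean level within a class. Red symbols are the 3 doxorubicin and blue symbols the 4 stretch libraries, and the red square, doxorubicin 2, is the highest symbol for 19 genes.

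**Figure D2:**
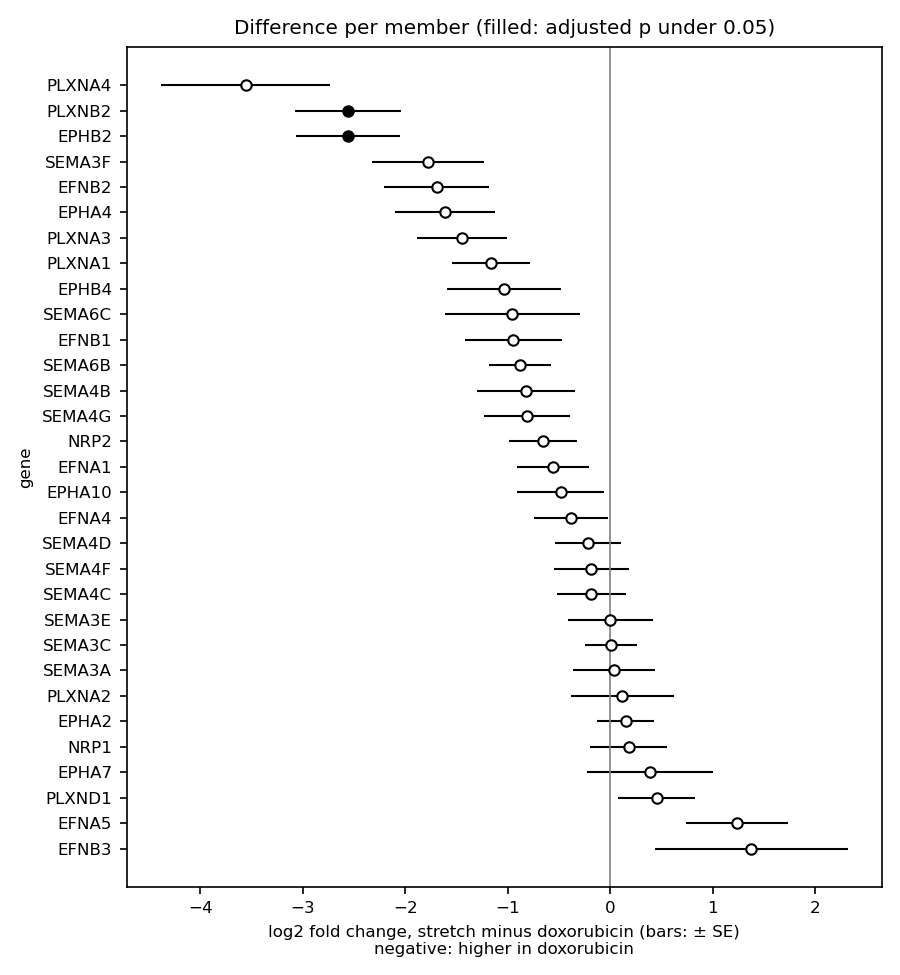
Log2 fold change of each tested member (stretch minus doxorubicin) with its standard error from edgeR's fit, 3 doxorubicin against 4 stretch libraries. The filled symbols, EPHB2 and PLXNB2, had an adjusted p under 0.05, while 21 of 31 genes lie left of 0, toward doxorubicin; with library totals 12 do.

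Of the 6 plexins tested, 1 was past the threshold and 4 had negative log2 fold changes. PLXNB2 (ENSG00000196576, chromosome 22, 50274979 to 50307627 on GRCh38, minus strand), a receptor of class 4 semaphorins and the principal B-type plexin of many epithelia, stood at 229.5, 588 and 91.3 CPM in doxorubicin 1, 2 and 3. In stretch 4 to 7 it stood at 41.8, 55.2, 56.8 and 50.5 CPM. Every doxorubicin library lay above every stretch library, and the doxorubicin libraries spread far more widely. The means were 303 ± 256 CPM (SD, n = 3) and 51.1 ± 6.73 CPM (n = 4), a 5.90-fold difference in the fit (a log2 fold change of -2.56 with SE 0.52, adjusted p = 0.0336 in edgeR's quasi-likelihood test over 3 and 4 libraries). The difference was carried least by doxorubicin 3: the log2 fold change was -1.64 without doxorubicin 2, still past the threshold, and -0.82 with doxorubicin 3 alone (adjusted p = 0.177). The call was also lost without doxorubicin 1 or any 1 of the stretch libraries. There adjusted p was 0.0912 to 0.152 and only 12 to 40 genes passed in all. It was lost with limma-voom too (adjusted p = 0.0609). With library totals in place of TMM factors the log2 fold change was -1.44 and did not pass (adjusted p = 0.133 by edgeR).

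A-type plexins are the signalling partners of neuropilins for secreted semaphorins, and bind class 6 semaphorins directly. PLXNA4 was barely detected, at 7, 6 and 13 counts in doxorubicin and 0, 1, 7 and 1 counts in stretch, that is 2.46 to 5.19 CPM against 0 to 0.757 CPM. Its ranges did not overlap and its log2 fold change, -3.56 (SE 0.83), lay just outside the threshold (adjusted p = 0.0515 by edgeR); without stretch 6, the only stretch library over 1 count, it was -5.05. PLXNA1 stood at 23.4, 39.8 and 13.6 CPM in doxorubicin and 13.4, 9.63, 10.6 and 10.8 CPM in stretch. Doxorubicin 3 cleared stretch 4 by little, and the difference did not pass (log2 fold change -1.16, SE 0.38, and -0.28 with doxorubicin 3 alone). PLXNA3 stood at 6.35, 14.7 and 5.67 CPM in doxorubicin and 4.01, 2.78, 2.59 and 2.80 CPM in stretch. These did not overlap either, and did not pass (log2 fold change -1.45, SE 0.44). PLXNA2 gave no such order, at 5.48 to 23.3 CPM in doxorubicin against 7.48 to 19.9 CPM in stretch. PLXND1, the receptor of SEMA3E, ran from 4.32 to 13.99 CPM in doxorubicin and from 12.4 to 14.1 CPM in stretch. Its lowest value was that of doxorubicin 2, where most other members were highest. PLXNC1, the receptor of SEMA7A, had at most 7 counts in any library and was not tested.

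Neuropilins, the ligand-binding co-receptors, did not pass. NRP1, which binds SEMA3A and also VEGF, stood at 106, 164 and 57.8 CPM in doxorubicin and 90.9, 124, 151 and 125.7 CPM in stretch. The doxorubicin libraries lay on both sides of the stretch range. NRP2, which prefers SEMA3F, stood at 62.3, 36.3 and 83.5 CPM in doxorubicin and 41.8, 35.3, 48.2 and 30.7 CPM in stretch, so that doxorubicin 1 and 3 were above stretch and doxorubicin 2 within it. The log2 fold changes were 0.18 (SE 0.37) for NRP1 and -0.65 (SE 0.33) for NRP2. With doxorubicin 3 alone they were 1.10 and -1.08.

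No secreted class 3 semaphorin passed. SEMA3C stood at 68.3, 64.0 and 72.2 CPM in doxorubicin and 69.0, 67.4, 67.2 and 71.3 CPM in stretch, a log2 fold change of 0.01 (SE 0.25). Its group ranges overlapped, and even doxorubicin 2 lay close to the rest. SEMA3A, a repellent of axons and endothelial cells, and SEMA3E also lay close to 0, with log2 fold changes of 0.04 (SE 0.40) and 0.00 (SE 0.41). SEMA3E ran from 8.32 to 18.2 CPM in doxorubicin and from 5.47 to 18.1 CPM in stretch. SEMA3F, an antagonist of tumour vessels through NRP2, stood at 7.94, 10.4 and 2.65 CPM in doxorubicin and 1.07, 1.82, 1.84 and 2.69 CPM in stretch. Doxorubicin 1 and 2 lay above all stretch libraries and doxorubicin 3 did not, and the log2 fold change of -1.78 (SE 0.54) did not pass. SEMA3D had at most 7 counts in any library and was not tested.

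Membrane-bound semaphorins did not pass in any class. Class 4 holds the ligands of B-type plexins, and its 5 tested members all had negative log2 fold changes, from -0.82 to -0.18, which were all positive with library totals (0.19 to 0.69). SEMA4B stood at 123, 361 and 69.6 CPM in doxorubicin and 92.9 to 121 CPM in stretch, and SEMA4G at 60.4, 122.8 and 33.6 against 29.9 to 50.9 CPM. Both were highest in doxorubicin 2, and in doxorubicin 3 SEMA4B lay below all stretch libraries and SEMA4G within them. SEMA4C and SEMA4D, each a ligand of PLXNB2, had means of 25.5 ± 10.1 against 21.9 ± 3.28 CPM and 15.9 ± 3.64 against 13.5 ± 1.93 CPM (SD, n = 3 and 4). SEMA4F stood at 5.16 to 7.78 against 4.32 to 5.88 CPM. In class 6, SEMA6B, a ligand of PLXNA4, stood at 24.2, 25.9 and 32.1 CPM in doxorubicin and 20.2, 13.4, 13.4 and 12.9 CPM in stretch. It was highest in doxorubicin 3 and its groups did not overlap, but it did not pass (a log2 fold change of -0.88 with SE 0.31, edgeR adjusted p = 0.126); with doxorubicin 3 alone the log2 fold change was -1.09. SEMA6C had 0 to 25 counts a library. SEMA4A, SEMA5A and SEMA7A were too low to be tested. SEMA5A had at most 4 and SEMA7A at most 5 counts in any library. SEMA4A had 27 counts in doxorubicin 3 against 2 to 10 in every other library. Library depths differ, and in CPM SEMA4A stood at 1.59, 1.73 and 5.10 in doxorubicin and 0.321 to 1.34 in stretch. SEMA7A stood at 0.378 to 4.32 against 0 to 0.267 CPM. Neither gene's groups overlapped in CPM, at counts near the limit of detection. The counts of SEMA7A did overlap, at 2, 5 and 2 in doxorubicin and 2, 1, 0 and 2 in stretch. Doxorubicin 1 and 3 thus lay above stretch only after scaling by library size.

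Of the 6 Eph receptors tested, 1 was past the threshold. EPHB2 (ENSG00000133216, chromosome 1, 22710839 to 22921500 on GRCh38, plus strand), a receptor tyrosine kinase that sorts epithelial cells by repulsion in the intestine, stood at 90.1, 303 and 64.3 CPM in doxorubicin 1, 2 and 3. It stood at 16.8, 30.4, 24.0 and 31.4 CPM in stretch 4 to 7. Every doxorubicin library was above every stretch library, doxorubicin 3 included. The means were 153 ± 131 CPM (SD, n = 3) and 25.7 ± 6.74 CPM (n = 4), a 5.89-fold difference in the fit (a log2 fold change of -2.56 with SE 0.51, adjusted p = 0.0316 in edgeR's quasi-likelihood test over 3 and 4 libraries). The log2 fold change was -1.58 without doxorubicin 2, still past the threshold, and -1.31 with doxorubicin 3 alone (adjusted p = 0.102). The call was lost without doxorubicin 1 or any 1 of the stretch libraries, at adjusted p of 0.0877 to 0.152. It was also lost with library totals in place of TMM factors, at a log2 fold change of -1.47 (adjusted p = 0.137 by edgeR). Of 17 alternatives EPHB2 passed in 10 and PLXNB2 in 9. Both kept their sign in all 17, which group ranges that do not overlap already made likely. GENCODE places 3 other genes within the span of EPHB2, 2 of them on the opposite strand, and strand use in the counting is not given in the sources used here; it places none over PLXNB2.

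EPHB4, the venous receptor of EFNB2, stood at 129, 383 and 47.4 CPM in doxorubicin and 64.2, 99.3, 106.8 and 90.3 CPM in stretch. Doxorubicin 3 was the lowest of all 7 libraries and doxorubicin 2 the highest, and the log2 fold change of -1.04 (SE 0.56) became 0.94 with doxorubicin 3 alone. EPHB3 had at most 15 counts in any library and was not tested. Among EphA receptors, EPHA2, the chief receptor of EFNA1 and often abundant in carcinoma lines, stood at 71.1, 81.3 and 91.7 CPM in doxorubicin and 111.7, 87.4, 77.7 and 84.9 CPM in stretch. The groups overlapped (log2 fold change 0.15, SE 0.28). EPHA4, which binds ephrins of both kinds, stood at 9.13, 17.3 and 7.56 CPM against 1.47, 5.35, 3.14 and 3.98 CPM. These did not overlap, and the difference did not pass (a log2 fold change of -1.62 with SE 0.49, edgeR adjusted p = 0.0916). EPHA10, a member without kinase activity, stood at 3.02 to 6.92 against 2.92 to 3.98 CPM, and EPHA7 at 0.945 to 1.99 against 0.861 to 2.94 CPM. EPHA5 and EPHA6 had at most 5 counts in any library.

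**Figure D3:**
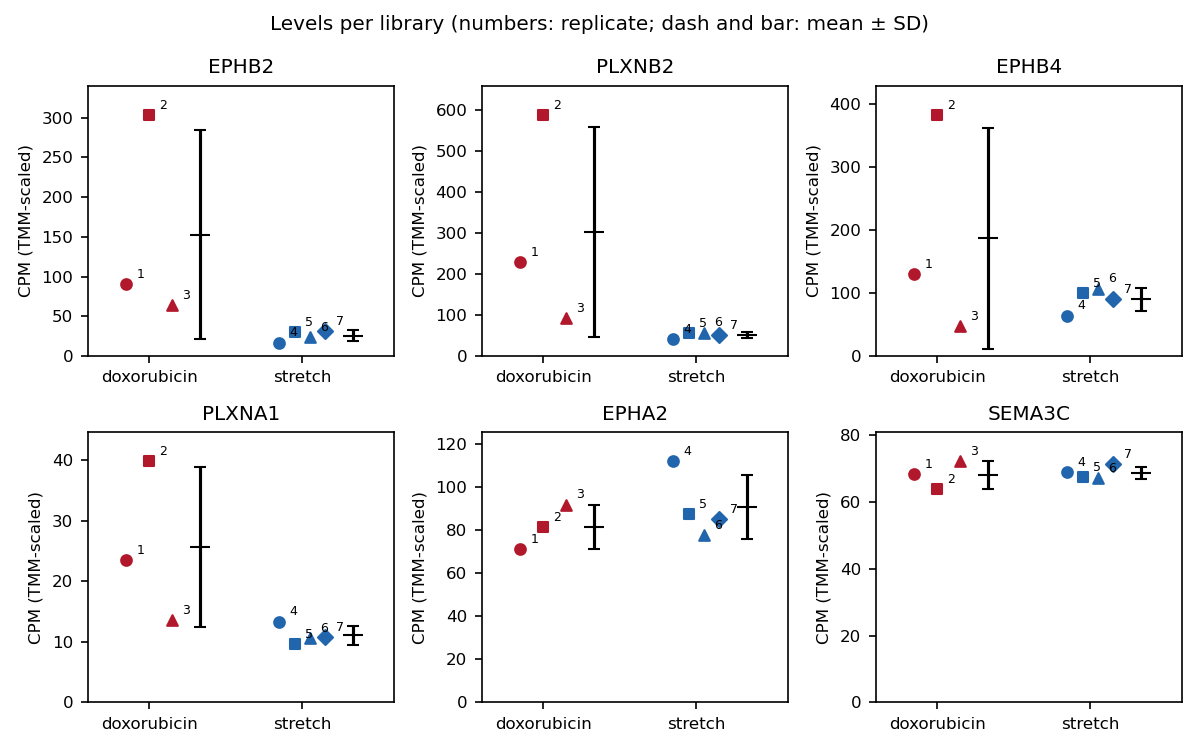
TMM-scaled CPM of 6 members in each library, numbered by replicate, with the mean and SD of each group (n = 3 doxorubicin, n = 4 stretch). EPHB2, PLXNB2 and PLXNA1 have all doxorubicin libraries above stretch, EPHB4 has doxorubicin 3 below it, and EPHA2 and SEMA3C overlap.

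None of the 6 ephrins tested passed. EFNA5, which binds EphA receptors and also EPHB2, stood at 1.19, 1.73 and 1.13 CPM in doxorubicin and 3.07, 3.64, 3.14 and 2.15 CPM in stretch. It was the only tested member with every stretch library above every doxorubicin library, but it had 3, 2 and 6 counts in doxorubicin, at the limit of detection, and did not pass (a log2 fold change of 1.24 with SE 0.50, edgeR adjusted p = 0.171). EFNB3 had 1 or 2 counts in each doxorubicin library and in stretch 4, and 17 to 21 in the other stretch libraries. In CPM it ran from 0.189 to 1.73 in doxorubicin and from 0.267 to 2.26 in stretch. The groups overlapped (log2 fold change 1.38, SE 0.94). EFNB2, the ligand of EPHB4 and EPHB2, stood at 15.1, 12.1 and 3.21 CPM in doxorubicin and 2.67, 2.78, 2.70 and 3.77 CPM in stretch. Doxorubicin 1 and 2 were above all stretch libraries and doxorubicin 3 was among them: the log2 fold change was -1.69 (SE 0.51, adjusted p = 0.0916 by edgeR), and -0.09 with doxorubicin 3 alone. EFNB1 stood at 3.57 to 6.92 against 1.82 to 4.67 CPM, EFNA1 at 16.1 to 27.7 against 9.08 to 18.3 CPM and EFNA4 at 5.48 to 10.7 against 5.62 to 6.94 CPM. None of the 3 passed. EFNA2 had at most 9 counts in any library and was not tested in the fit of all 7. It stood at 3.57, 6.92 and 0 CPM in doxorubicin and 0.215 to 0.963 CPM in stretch. Without doxorubicin 3, where it had 0 counts, it was tested and called (log2 fold change -2.99, adjusted p = 0.00746 by edgeR).

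Ratios of counts within a library do not depend on the scaling factor. The pairs were chosen after their values were seen and were not tested. EPHB2 over EPHB4 was 0.696, 0.792 and 1.35 in doxorubicin 1, 2 and 3 and 0.225 to 0.348 in stretch. EPHB2 over EPHA2 was 0.701 to 3.73 in doxorubicin and 0.151 to 0.370 in stretch. In both pairs the groups stayed apart, doxorubicin 3 included. PLXNB2 over its ligands also separated the groups: over SEMA4C it was 5.62 to 16.2 against 1.75 to 2.86, over SEMA4D 7.79 to 32.4 against 2.68 to 4.91, and over SEMA4G 2.71 to 4.79 against 0.992 to 1.895. PLXNB2 over EPHB2, by contrast, was 1.42 to 2.55 in doxorubicin and 1.61 to 2.48 in stretch; these ranges overlapped. NRP2 over NRP1 was 0.588, 0.221 and 1.44 in doxorubicin and 0.244 to 0.460 in stretch, with doxorubicin 2 below and doxorubicin 1 and 3 above all stretch libraries. A ratio shows an unequal difference of both genes, not which of them differed, and its height also depends on how well each gene's amplicon was amplified.

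**Figure D4:**
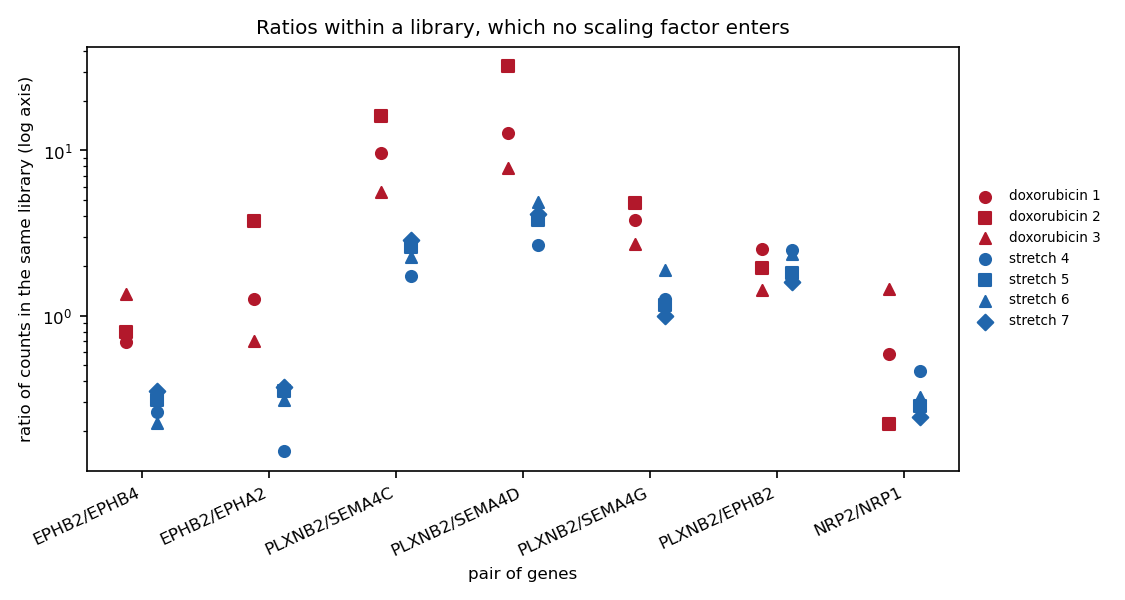
Ratio of the counts of 2 members in the same library, on a log axis, for 7 pairs; red symbols are doxorubicin and blue symbols stretch libraries. The first 5 pairs separate the groups, PLXNB2 over EPHB2 overlaps at 1.42 to 2.55, and NRP2 over NRP1 is scattered in doxorubicin.

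Doxorubicin 3 correlated with the stretch libraries at Pearson r of 0.915 to 0.941 over log-CPM of all tested genes, and with doxorubicin 1 and 2 at 0.882 and 0.754, values that share library depth. It lay above the stretch range for 11 of 31 members (35.5%, against 28.4% of all tested genes), below it for 8 (25.8% against 28.3%) and within it for 12 (38.7% against 43.3%). These shares were near those of all genes. The 11 above were SEMA3C, SEMA6B, SEMA6C, NRP2, PLXNB2, PLXNA1, PLXNA3, PLXNA4, EFNB1, EPHA4 and EPHB2. The 8 below were SEMA4B, SEMA4C, NRP1, PLXNA2, EFNA4, EFNA5, EFNB3 and EPHB4. With this library alone, 19 of the 33 members tested then lay on the doxorubicin side (57.6%, against 48% of 12344 genes). No member passed by edgeR, where 0.802% of genes did, and 11 (33.3%) had an unadjusted p under 0.05, against 16.8% of genes. Without that library, 12 of 32 members passed (37.5%), all higher in doxorubicin, where 32.2% of 11618 genes passed in either direction and 16.2% higher in doxorubicin. DESeq2 on all 7 libraries called 8 of 31 (25.8%), all higher in doxorubicin, against 11.6% of all genes in either direction and 7.89% higher in doxorubicin. These were EPHB2, PLXNB2, PLXNA1, PLXNA3, PLXNA4, EPHA4, EFNB2 and SEMA3F. Voom with library quality weights called 13 members (41.9%) against 47% of all genes. These were 12 members higher in doxorubicin and 1, EFNA5, higher in stretch. Among the 5276 genes it called, 2675 were higher in doxorubicin. Limma-voom called 2 members, EPHB2 and PLXNA4, against 1.66% of all genes. EPHB2 and PLXNB2 alone were called with RLE or upper-quartile factors, without a filter, with a mean of at least 10 CPM, without EIF4A2 and without doxorubicin 2, where 2.26%, 1.84%, 1.96%, 1.91%, 2.42% and 2.47% of all genes were. No member was called with library totals (0.116% of all genes), without doxorubicin 1 (0.197%) or without stretch 4, 5, 6 or 7 (0.359%, 0.146%, 0.109% and 0.109%).

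**Figure D5:**
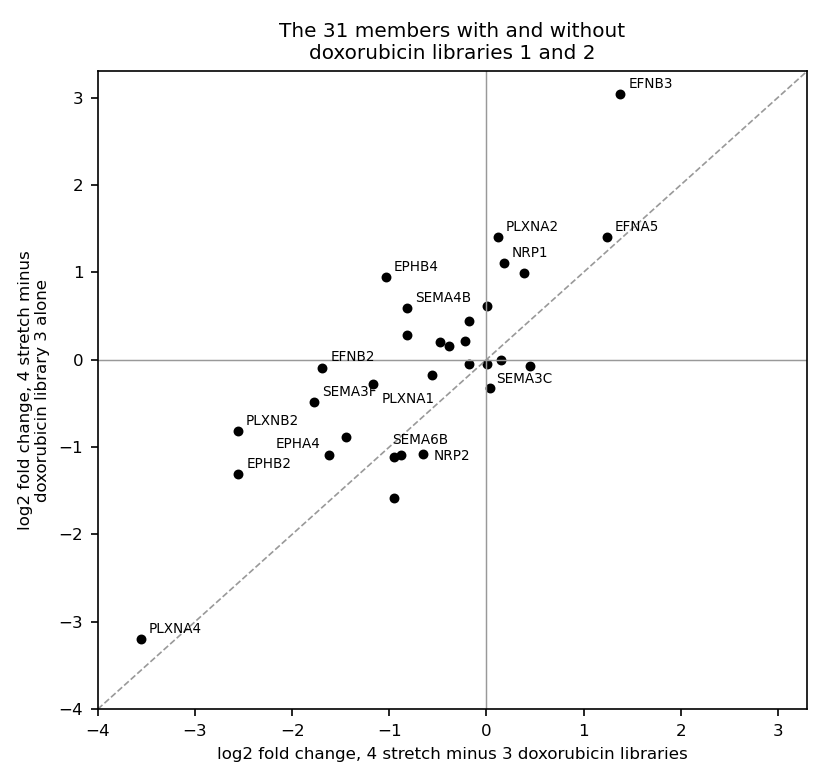
Log2 fold change of the 31 members with all 7 libraries (x axis) and with doxorubicin 3 as the only doxorubicin library (y axis); the dashed line marks equal values and the 2 axes share the stretch libraries. EPHB2 and PLXNB2 stay below 0 at -1.31 and -0.82, while EPHB4 and SEMA4B cross to the stretch side at 0.94 and 0.59.

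Signalling genes of these receptors were called about as often as all genes: 1 of 34 in each of 2 lists (2.94%), against 2.32%. In a list of semaphorin and plexin signalling genes, 1 of 34 tested members passed, LIMK1, the kinase that inactivates the actin-severing protein cofilin. It stood at 267, 427 and 190.2 CPM in doxorubicin and 83.7 to 97.5 CPM in stretch (a log2 fold change of -1.69 with SE 0.33, edgeR adjusted p = 0.0276), and its log2 fold change was -1.05 with doxorubicin 3 alone. ARHGEF11, which B-type plexins bind, and MICAL1, an actin-oxidising enzyme, missed the threshold, their log2 fold changes being 1.27 (SE 0.31) and -1.57 (SE 0.44). In a list of Eph and ephrin signalling genes, 1 of 34 passed, VAV2, a guanine nucleotide exchange factor that binds activated Eph receptors. It stood at 209, 526 and 80.9 CPM in doxorubicin and 49.7 to 60.9 CPM in stretch (a log2 fold change of -2.32 with SE 0.51, edgeR adjusted p = 0.0446), and -0.56 on that scale with doxorubicin 3 alone. The kinase SRC and the adaptor GRB10 did not pass, at -1.35 (SE 0.39) and 1.45 (SE 0.43). The medians of these lists were -0.18 and -0.17, with 19 and 18 members on the doxorubicin side (55.9% and 52.9%, against 48.8% of all genes). An unadjusted p under 0.05 was reached by 12 and 8 of them (35.3% and 23.5%, against 23.2%). Among the 34 genes of each list, 5 and 2 had every doxorubicin library above every stretch library, against 9.88% of all tested genes. The reverse held for 3 and 6, against 11.5%. LIMK1 passed in 10 and VAV2 in 6 of 17 alternatives, and without doxorubicin 1 or any 1 of the stretch libraries neither did. A list of other guidance genes held netrins, slits, their receptors and repulsive guidance families, among them SRGAP, FLRT, LRIG and RTN4 genes. None of its 14 tested genes passed by edgeR, and 3 (21.4%, against 23.2% of all genes) had an unadjusted p under 0.05. These were FLRT3 at 1.67 (SE 0.41), SLIT3 at -1.57 (SE 0.52) and NTN4 at -0.97 (SE 0.36). The list had a median of 0.30.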

How the data were processed

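Gene expression was measured in 3 doxorubicin and 4 stretch libraries, grouped by sample title. Per the labels' protocols, libraries came from an Ion AmpliSeq kit, in which PCR copies 1 short piece per gene, so levels of different genes are not compared and isoforms cannot be told apart. The deposited table holds whole numbers, taken as estimated counts per gene that the authors had rounded. Tools named in the submitters' processing notes are Salmon 1.9 and fastp 0.20.1, and the build is GRCh38; the annotation release is not given in the sources used here. Symbols in more than 1 row (65) had their rows summed, except Metazoa_SRP, a family name, which was left out (at most 0.00861% of a library). No library was a copy of another, the smallest chi-square over its degrees of freedom among 21 pairs being 8.02.

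Genes kept by filterByExpr were tested with R 4.3.3 and edgeR 4.0.16 (TMM factors, robust quasi-likelihood F-test, stretch minus doxorubicin), and p-values were adjusted over 11230 genes by Benjamini-Hochberg. The size of each log2 fold change over the root of its F statistic gave the standard error. The test was tried on simulated counts. The groups share no replicate number. Alternatives were other scaling factors and filters, DESeq2 1.42.0, limma 3.58.1 (voom, without and with library quality weights), EIF4A2 left out, doxorubicin library 3 alone, and leaving out each library. The members and lists were chosen with earlier results of these data known. Values per library are given for members past the threshold, or with groups that do not overlap and a mean of at least 5 CPM. The 2 most abundant of each class and the 5 with the largest log2 fold change in each direction are named, with values per library or ranges; the remaining members were added after their values were seen, so that all 40 are accounted for. A p that misses the threshold does not show that values did not differ. Gene positions are from GENCODE release 29.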

Additional observations from a re-analysis of the deposited data

Results flagged for a closer look

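Single stretch libraries stood away from the other 3 in 4 members, by a gap rule that chance meets in about 1 of 20 groups of 4 values; 31 members were examined. SEMA6B stood at 20.2 CPM in stretch 4 and PLXNA3 at 4.01 CPM in the same library, each above its other stretch values. EFNB2 was highest in stretch 7, at 3.77 CPM, and PLXNA4 in stretch 6, at 0.757 CPM, from 7 counts.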

How the results depend on the processing

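No paired analysis was possible because the groups share no replicate number. The count of members past the threshold was 2, and 0 with library totals alone, 8 with DESeq2, 13 with voom and library quality weights, 0 with doxorubicin 3 alone, and 0 to 12 without single libraries. Under the same 4 settings all genes past the threshold, 261 in the reported analysis, numbered 13, 1302, 5276 and 99, and pathway genes, 2 in the reported analysis, numbered 0, 15, 38 and 0. With a mean of at least 10 CPM, 143 genes and 1 pathway gene passed, and with upper-quartile factors and with limma-voom 1 pathway gene. Without single libraries the counts ran from 12 to 3736 and from 0 to 30. The members' median log2 fold change was 0.28 with library totals, -0.055 with doxorubicin 3 alone, and -0.70 to -0.21 without single libraries. Library totals shifted the median of all genes by 0.69, and single genes by more or less than that. They turned the sign of 9 members: EFNA1 (0.27), EFNA4 (0.39), EPHA10 (0.33), EPHB4 (0.12), SEMA4B (0.28), SEMA4C (0.69), SEMA4D (0.58), SEMA4F (0.56) and SEMA4G (0.19). Doxorubicin 3 alone turned 11: EFNA4 (0.15), EPHA10 (0.21), EPHA2 (-0.0042), EPHB4 (0.94), PLXND1 (-0.075), SEMA3A (-0.33), SEMA3C (-0.055), SEMA4B (0.59), SEMA4C (0.45), SEMA4D (0.22) and SEMA4G (0.28), and also SLIT3 (0.12). RLE factors and DESeq2 turned SEMA3C (-0.00085 and -0.0015) and SEMA3E (-0.022 and -0.036), limma-voom SEMA3A (-0.025), and quality weights EPHA7 (-0.39) and SEMA3A (-0.032). Without single libraries EPHB4 ran from -1.47 to 0.045, SEMA4B from -1.18 to 0.12, SEMA4C from -0.40 to 0.15, NRP1 from -0.10 to 0.60, PLXNA2 from -0.28 to 0.66, SEMA3A from -0.21 to 0.34, SEMA3C from -0.025 to 0.085 and SEMA3E from -0.24 to 0.29. None of these genes had passed in the reported analysis. The cause of these changes was not tested. The limit of detection of 3 counts concerns counting error only. The SEs also carry the spread between libraries that the fit estimated.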
